A study of Mus musculus with 54 samples.

Results

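EP300 chromatin immunoprecipitation sequencing (ChIP-seq) was compared between Ebf1-KO and Wt mouse B-cell progenitors at 1172 regions bound by the transcription factor Ebf1. The members were all rows of the deposited region tables that carry EP300 values at Ebf1-bound accessible regions, with 256 regions open in Wt only and 916 regions open in both genotypes. They rest on 2 of the 54 samples of the series, 1 EP300 library per genotype. Both cultures came from fetal liver of C57BL6/J mice and are labelled pro-B cells. They had been grown on OP9 stroma in the presence of interleukin-7 and the ligands of KIT and FLT3, and the chromatin was fixed with disuccinimidyl glutarate before formaldehyde. The Ebf1-KO cells came from Ebf1-deficient fetuses, and the Wt cells from wild-type fetuses. Ebf1 binding was called in an Abelson-transformed line of murine progenitor B cells, not in these progenitors, and the names of the tables call the regions enriched in Wt, without saying in which measure. A lower signal in Ebf1-KO cells at such regions is therefore not independent evidence of its direction. Gene expression was not analysed here, so the cell type label could not be set against defining markers.

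The antibody of the Wt EP300 library is uncertain. Its title and the table header name EP300, but its antibody label reads "PolII antibodies?", with the question mark. The Ebf1-KO library is labelled with a rabbit polyclonal antibody to EP300. Every comparison below between the genotypes depends on the Wt library being what its title says.

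EP300 (p300) is a histone acetyltransferase that transcription factors recruit to enhancers and promoters, where it acetylates histone H3 at lysine 27 (H3K27ac) among other residues. EP300 occupancy is widely used to map active enhancers. Ebf1 is a DNA-binding factor that specifies the B lineage together with E2A and Pax5, and it binds an inverted repeat of TCCC and GGGA.

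Of the Ebf1-bound regions, 226 held at least 1 whole RefSeq promoter window (300 bases around an annotated start, assembly GRCm38.p6), which made 277 windows. TCCC followed after 2 bases by GGGA (the long form), which reads the same on both strands, stood in 3.61% of these windows, against 0.904% of the 32851 promoter windows analysed over the genome. The shorter run CCCNNGGG, which lies within the long form, stood in 35.0% of the windows in Ebf1-bound regions and in 13.7% of all windows. The promoters below do not span the range of EP300 differences at such windows. By library totals, none of their regions was at least 2-fold higher in Ebf1-KO cells, whereas 15 regions with a promoter window were. The promoters were chosen after their values were seen. Capitals mark each match to CCCNNGGG, or to the long form where that match is complete, and each window runs 5′ to 3′ on the strand of its gene.
Igll1: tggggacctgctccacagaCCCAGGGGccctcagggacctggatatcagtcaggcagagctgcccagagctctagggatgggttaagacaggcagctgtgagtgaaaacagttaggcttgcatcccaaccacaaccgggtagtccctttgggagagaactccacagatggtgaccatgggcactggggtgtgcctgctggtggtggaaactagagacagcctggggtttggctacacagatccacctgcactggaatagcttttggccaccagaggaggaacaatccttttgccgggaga
Cd79a: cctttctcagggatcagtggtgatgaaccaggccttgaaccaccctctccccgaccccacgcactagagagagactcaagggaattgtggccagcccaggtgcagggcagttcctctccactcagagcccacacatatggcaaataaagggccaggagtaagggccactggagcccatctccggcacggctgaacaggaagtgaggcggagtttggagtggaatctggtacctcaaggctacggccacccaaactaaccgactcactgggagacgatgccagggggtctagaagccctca
Pou2af1: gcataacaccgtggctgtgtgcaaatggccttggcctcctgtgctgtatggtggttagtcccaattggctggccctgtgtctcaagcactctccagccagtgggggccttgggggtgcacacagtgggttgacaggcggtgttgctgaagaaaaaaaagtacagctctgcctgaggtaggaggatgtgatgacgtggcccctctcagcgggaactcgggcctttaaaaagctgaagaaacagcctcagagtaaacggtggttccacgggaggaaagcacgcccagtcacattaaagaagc
Ceacam1: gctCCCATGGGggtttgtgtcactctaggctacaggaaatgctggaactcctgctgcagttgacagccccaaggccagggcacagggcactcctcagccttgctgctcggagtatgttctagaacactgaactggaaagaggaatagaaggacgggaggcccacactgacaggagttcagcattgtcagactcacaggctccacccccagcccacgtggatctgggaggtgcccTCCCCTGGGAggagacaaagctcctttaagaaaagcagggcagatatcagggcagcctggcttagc
Cd22: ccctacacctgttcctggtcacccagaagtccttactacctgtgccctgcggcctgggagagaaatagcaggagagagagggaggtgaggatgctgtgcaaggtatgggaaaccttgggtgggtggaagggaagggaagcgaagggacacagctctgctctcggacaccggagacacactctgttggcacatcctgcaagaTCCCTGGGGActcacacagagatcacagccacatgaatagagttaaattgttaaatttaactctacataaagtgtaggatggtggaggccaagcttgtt

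The Igll1 window lies at chr16:16863936-16864235 on the minus strand, Cd79a at chr7:24897247-24897546 on the plus strand and Pou2af1 at chr9:51213440-51213739 on the plus strand. Ceacam1 lies at chr7:25477576-25477875 and Cd22 at chr7:30878979-30879278, both on the minus strand. Ceacam1 and Cd22 encode inhibitory receptors of the cell surface, and both windows hold a complete match to the long form. EP300 at the region around the Ceacam1 window was 4.23 in Ebf1-KO cells and 16.3 in Wt cells. Around the Cd22 window it was 9.40 in Ebf1-KO cells and 5.35 in Wt cells. The 2 complete matches thus stood at regions with opposite differences. The log2 ratio at Cd22 was 0.71 by library totals, short of 2-fold. It was 1.22, past 2-fold, with the trimmed mean of M values, the other scaling used below. The Cd79a and Pou2af1 windows hold neither run of letters, and EP300 there was among the values that differed most. Only exact runs were searched, so the lack of a match does not show that a binding site is absent. Over regions that held a promoter window, the median EP300 log2 ratio was -0.44 for the 87 with CCCNNGGG and -0.29 for the 139 without it. CCCNNGGG stood in 43.5% of the 46 such regions with EP300 at least 2-fold lower in Ebf1-KO cells. It stood in 35.8% of the 165 between and in 53.3% of the 15 at least 2-fold higher.

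Coordinates are those of the build mm10. Each value is the number of tags in a region, scaled to 10000000 tags per library. Values were not divided by region length, except where a value per kilobase is named. The EP300 libraries held 63819568 tags for Ebf1-KO and 41086404 for Wt, of which 0.153% in Ebf1-KO and 0.234% in Wt fell in the regions. The deposited values returned whole tags, so each value carries an exact 95% Poisson interval, and each fold an exact conditional interval, for counting error only. The EP300 library of Ebf1-KO was deeper than those of BRG1 and RNA polymerase II, yet it had 31 regions at 0 tags. In Ebf1-KO, BRG1 had 15 such regions and RNA polymerase II 4. The intervals take no account of this, and its cause was not tested. Input libraries were not used. There was no replicate library, so no test across cultures was possible and the differences compare these libraries. Because the cultures were measured in bulk, fewer cells with EP300 at a region and less EP300 per cell cannot be told apart. Log2 ratios are Ebf1-KO over Wt after 1 was added to each scaled value, and a region counts as lower or higher where this ratio passes 2-fold.

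EP300 was lower in Ebf1-KO cells than in Wt cells at regions open in Wt only, and it was spread to both sides at regions open in both. Over all 1172 regions, 433 (36.9%) were at least 2-fold lower and 129 (11.0%) at least 2-fold higher in Ebf1-KO cells. At the 256 regions open in Wt only, the median value was 2.82 in Ebf1-KO cells and 9.74 in Wt cells, with a median log2 ratio of -1.50 and quartiles of -2.59 and -0.37. Of these, 160 (62.5%) were lower and 18 (7.03%) higher. At the 916 regions open in both, the median was 11.4 in Ebf1-KO cells and 16.3 in Wt cells, with a median log2 ratio of -0.40 and quartiles of -1.20 and 0.44. Of these, 273 (29.8%) were lower and 111 (12.1%) higher by library totals, and the balance turned round with the trimmed mean of M values (TMM), to 181 (19.8%) lower and 229 (25.0%) higher. Per kilobase, the medians at regions open in Wt only were 4.44 in Ebf1-KO cells and 14.8 in Wt cells, against 10.8 in Ebf1-KO cells and 14.7 in Wt cells at regions open in both. Per kilobase the Wt medians of the classes were close, and the Ebf1-KO medians were not.

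The scaling sets the balance of the calls. The median log2 ratio over all regions was -0.56, and TMM factors from the same regions moved it to -0.02. With TMM, 311 regions (26.5%) were lower and 254 (21.7%) higher, and the median at regions open in both turned to 0.14, while that at regions open in Wt only was -1.04. The difference between the classes in median log2 ratio was -1.10 by library totals and -1.17 with TMM. Relative to the median of all regions, regions open in Wt only stood at -0.94 and regions open in both at 0.16.

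**Figure D1:**
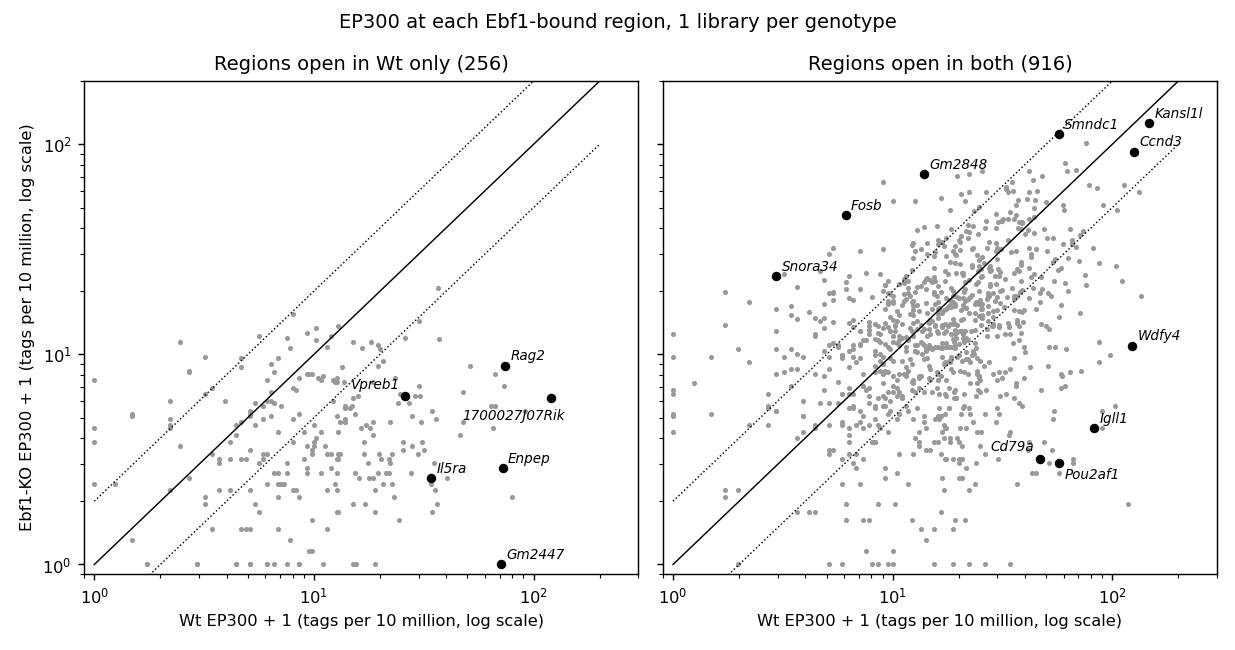
EP300 in Ebf1-KO (vertical) against Wt (horizontal) at each region, as tags per 10000000 plus 1 on log axes, with the 256 regions open in Wt only on the left and the 916 open in both on the right. The solid line marks equal values and the dotted lines 2-fold differences. Most points on the left lie below the diagonal, and those on the right lie on both sides of it.

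The 12 regions with the largest loss, at most 1 per gene and with at least 20 tags per 10000000 in one library, ranged from 0 to 5.17 in Ebf1-KO cells and from 21.2 to 119 in Wt cells. The order of the genotypes there follows from how the regions were picked. None of them was annotated as a promoter, as were 15.2% of all regions, and 12 regions are too few to tell these shares apart. The region named for 1700027J07Rik, one of the 12, lies 0.241 kb from a start under another annotation. Of the 12, 8 were open in both genotypes and 4 in Wt only. The region that carries the name Gm2447 (chr3:52638682-52639315, intergenic) had 0 tags in Ebf1-KO cells and 69.8 (62.0 to 78.4) in Wt cells. Set against a floor of 3 tags, it was 149-fold lower in Ebf1-KO cells, and the exact conditional interval of the fold starts lower, at 120.1. An intron of Alpl (chr4:137788264-137789248), the gene of an alkaline phosphatase, had 0.94 (0.345 to 2.05) in Ebf1-KO cells and 117 (107 to 128) in Wt cells. That is 125-fold (56.9 to 342) lower. An intron of Nedd9 (chr13:41426683-41427628), a scaffold protein of adhesion signalling, had 1.10 in Ebf1-KO cells and 78.9 in Wt cells, or 71.9-fold (34.5 to 180.2) lower. A region 1.78 kb from the start of Enpep (chr3:129334261-129334805), which encodes the surface aminopeptidase BP-1 that marks mouse pre-B cells, had 1.88 in Ebf1-KO cells and 71.3 in Wt cells. It was 37.9-fold (21.4 to 74.2) lower. Another 3 of the 12, in introns of Fam53b, Klhl6 and Prxl2a, had no tag in Ebf1-KO cells and 25.3, 21.2 and 33.1 in Wt cells. Against the same floor they were 53.8-fold, 45-fold and 70.4-fold lower. Their exact intervals start at 43.0, 35.9 and 56.5.

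The 12 regions with the largest gain included 2 promoters, a share near the 15.2% over all regions. All 12 were open in both genotypes, which the rule fixed, since no region open in Wt only exceeded 19.7 in Ebf1-KO cells. They ranged from 21.6 to 71.0 in Ebf1-KO cells and from 1.95 to 12.9 in Wt cells. The folds were smaller than on the other side, with log2 ratios of 1.9 to 3.00 against -6.15 to -4.28. A region 6.65 kb from the start of Fosb (chr7:19316286-19317102), which encodes a subunit of the AP-1 factor, had 45.1 (40.1 to 50.7) in Ebf1-KO cells and 5.11 (3.16 to 7.81) in Wt cells, 8.83-fold (5.67 to 14.5) higher. An intron of Cmah (chr13:24337867-24339064), the gene of a sialic acid hydroxylase, had 65.0 (58.9 to 71.6) in Ebf1-KO cells and 8.03 (5.53 to 11.3) in Wt cells, 8.10-fold (5.67 to 11.9) higher. A region 43.1 kb from the start of Cxcr4 (chr1:128548308-128550001), the receptor of the chemokine CXCL12, had 21.6 in Ebf1-KO cells and 3.89 in Wt cells. A second Cxcr4 region 77.8 kb from the start (chr1:128513879-128515113) had 15.7 in Ebf1-KO cells and 20.7 in Wt cells, with a fold interval (0.977 to 1.78 lower) that holds 1. With TMM its log2 ratio turned from -0.38 to 0.18. The Apold1 promoter (chr6:134981104-134982040) had 23 in Ebf1-KO cells and 2.19 in Wt cells, and the Tmem65 promoter (chr15:58822718-58824285) had 30.1 in Ebf1-KO cells and 6.08 in Wt cells.

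**Figure D2:**
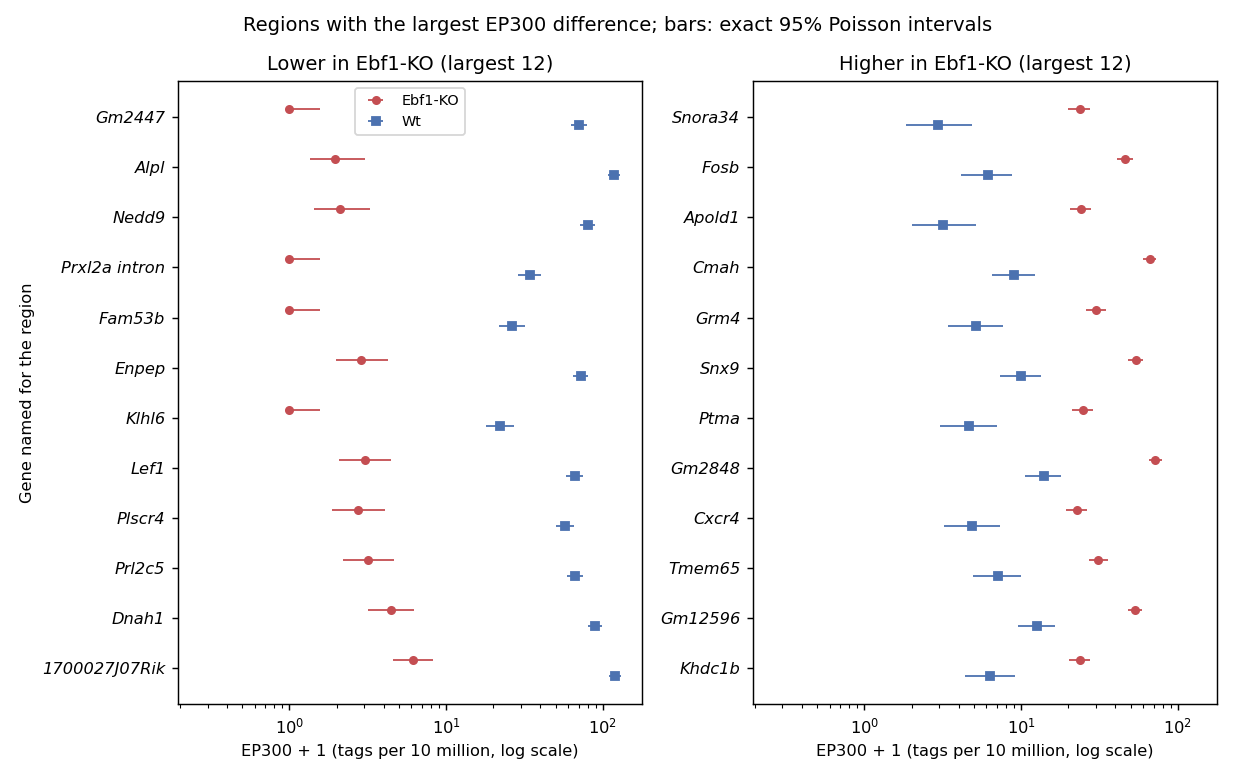
EP300 value plus 1 (tags per 10000000, log axis) at the 12 regions with the largest difference in each direction, Ebf1-KO as circles above Wt as squares, with exact 95% Poisson intervals. The rows were picked by their ratio, and the values of the lower set reach 0 tags in Ebf1-KO at 4 regions.

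By library totals, the 6 regions with the highest EP300 in Ebf1-KO cells all stayed within 2-fold, and some of the 6 highest in Wt cells did not. The highest value in both libraries was at an intron of Kansl1l (chr1:66815982-66818281), with 125 (117 to 134) in Ebf1-KO cells and 146 (134 to 158) in Wt cells. Ccnd3, which encodes cyclin D3, had an intronic region (chr17:47541762-47542645) with 91.0 in Ebf1-KO cells and 125 in Wt cells, which is also among the 6 highest of each library. The log2 ratios of the 6 highest Ebf1-KO regions ran from -0.45 to 0.97 by library totals. With TMM the uppermost of these, at the region named for Smndc1, was 1.55, past 2-fold. Of the 6 highest Wt regions, those named for Smarca4 (chr9:21624918-21626233), Wdfy4 (chr14:33189141-33190372) and 1700027J07Rik (chr10:43745839-43746959) had 18, 10.0 and 5.17 in Ebf1-KO cells, against 134, 122 and 119 in Wt cells. The last of these was also among the 12 largest losses. Smarca4 encodes BRG1, the catalytic subunit of a chromatin remodelling complex.

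EP300 was lower in Ebf1-KO cells at the promoters of Igll1, Cd79a, Vpreb1 and Pou2af1. Igll1 and Vpreb1 encode the surrogate light chain of the pre-B-cell receptor, and Cd79a one of its signalling chains. The Igll1 promoter (chr16:16863729-16864437) had 3.45 (2.16 to 5.22) in Ebf1-KO cells and 82.0 (73.5 to 91.3) in Wt cells, 23.8-fold (15.5 to 38.5) lower. The Cd79a promoter (chr7:24896982-24897767) had 2.19 (1.20 to 3.68) in Ebf1-KO cells and 45.8 (39.4 to 52.8) in Wt cells, 20.9-fold (12.1 to 38.9) lower. Both promoters were open in both genotypes by the deposited classes, and their EP300 intervals were far apart. The Vpreb1 promoter (chr16:16869013-16869570) had 5.33 in Ebf1-KO cells and 25.1 in Wt cells, 4.71-fold (3.17 to 7.15) lower. The Pou2af1 promoter (chr9:51212995-51214114), of the octamer-factor coactivator OBF-1, had 2.04 (1.08 to 3.48) in Ebf1-KO cells and 56.2 (49.2 to 64.0) in Wt cells, 27.6-fold (15.8 to 52.6) lower.

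Distal regions of Lef1, Foxo1 and Rag2 and a Tcf3 intron also had less EP300 in Ebf1-KO cells. Lef1, a factor that supports pro-B cell survival, gave its name to 4 regions, which ranged from 1.72 to 9.56 in Ebf1-KO cells and from 22.9 to 65.0 in Wt cells. The region 55.7 kb from its start (chr3:131054138-131055139) differed most, at 31.9-fold (18.3 to 60.7) lower. Foxo1, which drives Rag expression, had 2 distal regions. The first (chr3:52443632-52444742) had 8.93 in Ebf1-KO cells and 96.6 in Wt cells, and the second (chr3:52457979-52459184) had 5.48 in Ebf1-KO cells and 31.9 in Wt cells. All of these were below the Wt values by more than the counting intervals. A region named for Rag2 (chr2:101598305-101599187), which lies in an intron of Iftap, had 7.83 in Ebf1-KO cells and 73.3 in Wt cells, 9.35-fold (6.91 to 12.9) lower. An intron of Tcf3 (chr10:80429685-80430593), the gene of E2A, had 7.36 in Ebf1-KO cells and 70.8 in Wt cells. The second Tcf3 region, 9.54 kb from the start (chr10:80442655-80443733), had 16.1 in Ebf1-KO cells and 11.9 in Wt cells, and its fold interval (0.954 to 1.94) holds 1. No region in the tables is named for Pax5.

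The regions of Ebf1 itself differed in direction, and that of Spib was higher. The intergenic region 5.13 kb from the Ebf1 start (chr11:44612343-44613605) had 8.77 in Ebf1-KO cells and 4.14 in Wt cells, 2.12-fold (1.21 to 3.89) higher. Its log2 ratio was 0.93 by library totals, short of the threshold, and 1.43 with TMM, past it. A region in an Ebf1 intron, which the table names for Gm12159 (chr11:44892789-44893655), had 13.0 in Ebf1-KO cells and 46.2 in Wt cells, 3.56-fold (2.73 to 4.66) lower. The region of Spib, an ETS factor, lies in an intron of its neighbour Pold1 (chr7:44534017-44534974) and had 52.5 in Ebf1-KO cells and 20.4 in Wt cells, 2.57-fold (2.02 to 3.30) higher. Fli1, Tcf4 and Id3 had log2 ratios of -0.79, -0.08 and 0.90. With TMM they were -0.23, 0.48 and 1.44 in the same order, so Tcf4 changed sign and Id3 passed 2-fold.

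Genes of the lists were counted by their strongest region, to be read against 36.9% lower and 11.0% higher over all regions. Of 11 measured B-lineage factors, 4 were lower and 1 higher, with a median log2 ratio of -0.79 against -0.56 over all regions, which is a share near that background. With TMM 4 were lower and 4 higher, with a median of -0.23. Of 15 measured genes in the list for signalling of the pre-B-cell receptor, 9 were lower and 1 (Cd22) higher, with a median of -1.37. With TMM 7 were lower and 2 higher, with a median of -0.80. The strongest Cd22 region is not its promoter but lies 7.48 kb from the start (chr7:30887335-30888307), with 23.2 in Ebf1-KO cells and 7.79 in Wt cells. The gene of the receptor-like protein Fcrla had 10.5 in Ebf1-KO cells and 85.7 in Wt cells (chr1:170928280-170929132). The kinase gene Blk had 18.8 in Ebf1-KO cells and 20.2 in Wt cells. Both measured genes of V(D)J recombination, Rag2 and Dntt, were lower. Dntt encodes the terminal transferase that adds bases at the joints, and its region (chr19:41022083-41022676) had 10.8 in Ebf1-KO cells and 36.0 in Wt cells. Of 9 measured receptor and surface protein genes, 6 were lower and none was higher, and 3 were lower with TMM. Over all 12 regions of these genes 7 were lower and 1, the Cxcr4 region above, was higher. The Il5ra promoter (chr6:106748844-106749506) had 1.57 in Ebf1-KO cells and 33.1 in Wt cells. None of the 3 measured cell cycle and survival genes passed 2-fold at its strongest region, while of all their 6 regions 1 was lower and 1 higher. Bcl2l1, a survival gene, had 33.2 in Ebf1-KO cells and 26.5 in Wt cells. Of 3 measured genes of chromatin proteins, Smarca4 and Hdac7 were lower and Ezh2 did not pass 2-fold, at 42.3 in Ebf1-KO cells and 30.4 in Wt cells. With TMM its log2 ratio was 1.04, past the threshold. Over all 6 regions of these chromatin genes 2 were lower and none higher, with a median log2 ratio of -0.45, near that of all regions. The only T-lineage gene measured, Cd5, had 3.76 in Ebf1-KO cells and 4.87 in Wt cells. No gene of the natural killer, myeloid, erythroid or stromal lists had a region in the tables, so chromatin of such cells could not be checked there.

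Several genes carried 5 or more regions, and EP300 was not uniform within them. At Nedd9, with 7 regions, the log2 ratio ran from -5.25 to 0.26, with 4 regions lower and none higher. At Fam53b it ran from -4.72 to 1.10, at Alpl from -5.93 to 2.70 and at Tanc1 from -1.43 to 3.64. The upper ends at Alpl and Tanc1 rest on the 1 added to each value, since the values there were 5.48 and 11.4 in Ebf1-KO cells and 0 in Wt cells at both. Alpl held one of the 12 largest losses and also a region with 16 in Ebf1-KO cells and 2.43 in Wt cells (chr4:137807253-137808068), at 11.3 kb from its start. At Cplx2, 4 of 5 regions were lower, and at Cyth1 1 of 6. These genes were chosen by their number of regions, outside the rule for named genes.

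**Figure D3:**
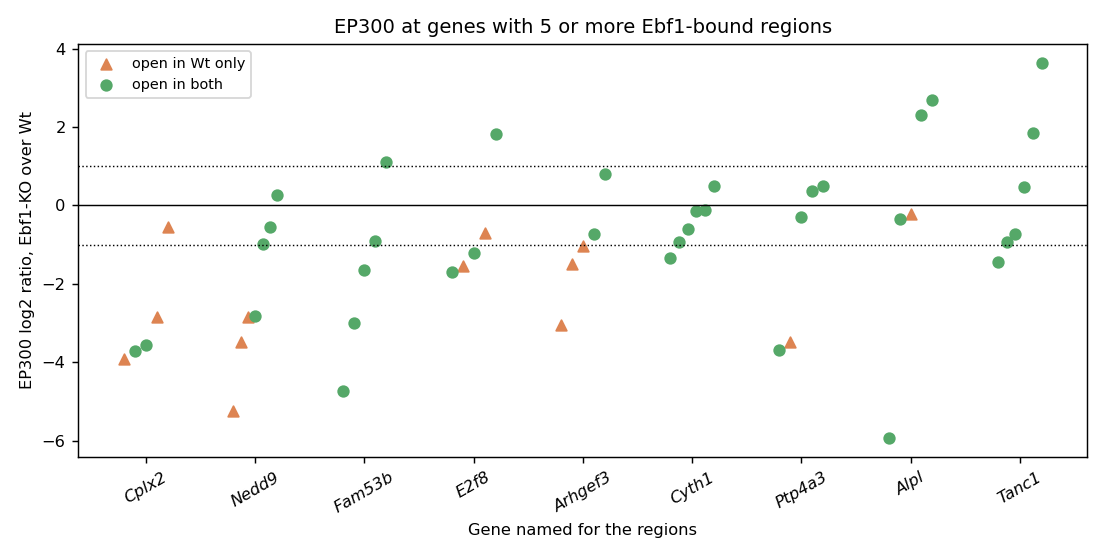
EP300 log2 ratio (Ebf1-KO over Wt, value plus 1) of each region at the genes with 5 or more Ebf1-bound regions, with regions open in Wt only as triangles and regions open in both as circles. Dotted lines mark 2-fold differences. Within a gene the regions spread over several units, from -5.93 to 2.70 at Alpl.

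In the class open in both, smaller shares of promoter regions than of intronic or intergenic regions passed 2-fold. Among regions open in both, 19.5% of the 159 promoter regions were lower and 6.92% higher, against 33.1% and 10.8% of the 372 intronic regions and 33.8% and 16.9% of the 266 intergenic regions. Regions within 1 kb of a start were lower in 20.8% those at 1 to 10 kb in 40.1%, those at 10 to 50 kb in 28.8% and those beyond in 38.6%. Per kilobase, promoter regions of this class had a median of 9.94 in Ebf1-KO cells and 14.1 in Wt cells, and intergenic regions 13.2 in Ebf1-KO cells and 15.6 in Wt cells. With TMM the shares higher in this class were 22.6% at promoters, 23.4% at introns and 29.7% at intergenic regions. In the class open in Wt only, 57.9% of the 19 promoter regions were lower and 10.5% higher. The shares there were 59.8% and 7.14% of the 112 intronic regions and 68.5% and 5.56% of the 108 intergenic regions.

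Regions that overlap peaks of Pax5, Fli1 or Ikzf1 had higher median EP300 than regions without them, in both genotypes before division by length. The Pax5 overlap is that of the deposited tables. The Fli1 and Ikzf1 peaks are the authors' lists for Wt cells. At regions open in Wt only, the median EP300 with a Pax5 peak was 3.45 in Ebf1-KO cells and 15.3 in Wt cells, against 2.66 in Ebf1-KO cells and 7.55 in Wt cells without one. In this class 75.3% of the 93 regions with a Pax5 peak were lower, and 55.2% of the 163 without one. With a Fli1 peak the shares were 72.6% of 135, against 51.2% of 121 without one. At regions open in both, 33.1% of the 635 with a Fli1 peak were lower, against 22.4% of the 281 without one. For Ikzf1 the shares in that class were 37.7% of 276 and 26.4% of 640. The Ebf1-KO medians in that class, with and without a peak, were 12.5 and 10.0 for Pax5. They were 13.0 and 9.40 for Fli1 and 13.6 and 10.5 for Ikzf1. Regions with a peak were also longer. In the class open in Wt only the median length was 839 bp with a Pax5 peak and 568 bp without one, and 749 bp with a Fli1 peak and 599 bp without one. Per kilobase, the medians with a Pax5 peak were 4.19 in Ebf1-KO cells and 19.2 in Wt cells, against 4.71 in Ebf1-KO cells and 12.5 in Wt cells without one. The part of region length in these shares was not tested.

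The BRG1 and RNA polymerase II libraries of the same genotypes showed the same split between the classes. Of all regions, BRG1 was at least 2-fold lower at 380 (32.4%) and higher at 117 (9.98%), and RNA polymerase II was lower at 621 (53.0%) and higher at 41 (3.50%). At regions open in Wt only, the median log2 ratio was -1.43 for BRG1 and -2.33 for RNA polymerase II, beside -1.50 for EP300. At regions open in both it was -0.10 for BRG1 and -0.85 for RNA polymerase II, beside -0.40 for EP300, and TMM turned these to 0.19, 0.25 and 0.14. Of the 433 regions with lower EP300, 280 also had lower BRG1, which is 64.7% of the EP300 regions and 73.7% of the BRG1 regions. With RNA polymerase II 362 were shared, 83.6% of the EP300 regions and 58.3% of the polymerase regions. Of the 129 regions with higher EP300, 46 had higher BRG1 (35.7% of the EP300 regions and 39.3% of the BRG1 regions) and 12 had higher RNA polymerase II (9.30% and 29.3%), and 79 had neither. At the Fosb region BRG1 was 45.5 in Ebf1-KO cells and 8.33 in Wt cells, and RNA polymerase II 69.8 in Ebf1-KO cells and 6.24 in Wt cells. At the Apold1 promoter RNA polymerase II was 7.87 in Ebf1-KO cells and 41.8 in Wt cells, against the direction of EP300.

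**Figure D4:**
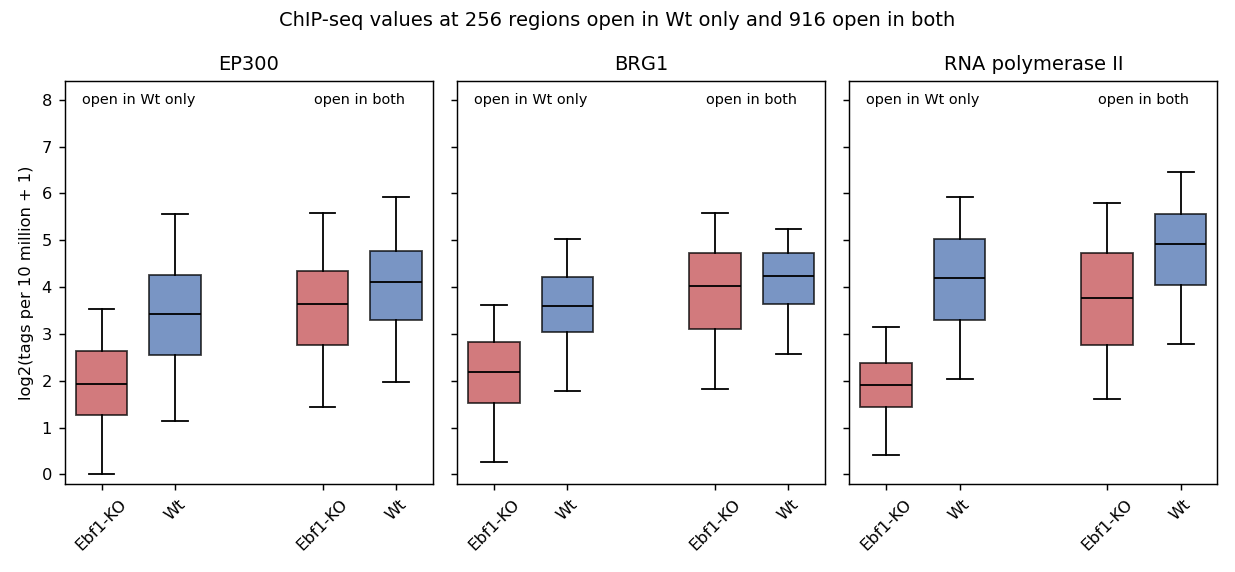
Values of EP300, BRG1 and RNA polymerase II (log2 of tags per 10000000 plus 1) in Ebf1-KO and Wt at the 256 regions open in Wt only and the 916 open in both. Boxes show quartiles and median over regions and whiskers the 5th and 95th percentiles. In the class open in Wt only the Ebf1-KO medians lie at 2.82, 3.57 and 2.74 tags, below the Wt medians of 9.74, 11.1 and 17.4 tags.

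The values do not settle the antibody of the Wt EP300 library. Over the regions open in both, Spearman's rho of Wt EP300 was 0.72 with Wt RNA polymerase II and 0.73 with Wt BRG1, and it was 0.71 between those 2. In Ebf1-KO cells EP300 had 0.74 with RNA polymerase II and 0.85 with BRG1, and those 2 had 0.77. The points of a pair share region length and accessibility, and pairs within a genotype share the culture, so the values are a description. Over promoter regions the median log2 ratio of EP300 to RNA polymerase II within a genotype was -0.47 in Ebf1-KO cells and -0.80 in Wt cells. Over intergenic regions it was 0.11 in Ebf1-KO cells and -0.64 in Wt cells. EP300 in one genotype against the other had a rho of 0.36 over these regions, as had RNA polymerase II, and BRG1 had 0.37.

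H3K27ac, a mark that EP300 can deposit, was lower in Ebf1-KO cells at larger shares of regions where EP300 was lower. H3K27ac values came from CUT&RUN, 1 library per genotype, at 1164 regions matched by position, of which 52.5% were at least 2-fold lower in Ebf1-KO cells and 0.430% higher. At the 272 matched regions open in both with lower EP300, the median H3K27ac was 7.22 in Ebf1-KO cells and 34.1 in Wt cells, and 75.7% were at least 2-fold lower. At the 529 regions between the thresholds it was 14.6 in Ebf1-KO cells and 26.1 in Wt cells, and 34.4% were lower. At the 110 regions with higher EP300 it was 14.2 in Ebf1-KO cells and 18.8 in Wt cells, 17.3% were lower and 0.909% higher. Of the regions with higher EP300 in this class, 1 thus had H3K27ac higher by 2-fold. The median H3K27ac log2 ratio over all matched regions was -1.06. H3K4me2, a mark of primed and active enhancers, had median log2 ratios of -1.86, 0.09 and 0.24 over the same 3 sets. Spearman's rho between the EP300 and H3K27ac log2 ratios was 0.54 over 911 regions open in both and 0.39 over 253 open in Wt only.

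At the named loci the 12 regions with the largest EP300 loss all had lower H3K27ac, BRG1 and RNA polymerase II by at least 2-fold. The shares over all regions (matched regions for H3K27ac) were 52.5%, 32.4% and 53.0% in that order. At the Alpl intron H3K27ac was 3.33 in Ebf1-KO cells and 103 in Wt cells. At the Igll1 promoter it was 14.1 in Ebf1-KO cells and 58.2 in Wt cells. Of the 12 with the largest gain, none had higher H3K27ac by 2-fold, 8 had higher BRG1 and 2 had higher RNA polymerase II. The shares over all regions were 0.430%, 9.98% and 3.50% in that order, so the absence of higher H3K27ac is near its share. At the Spib region BRG1 was 43.6 in Ebf1-KO cells and 14.4 in Wt cells, in the direction of EP300, whereas H3K27ac was 13.3 in Ebf1-KO cells and 36.9 in Wt cells.

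Accessibility after Ebf1 activity was restored was read from ATAC-seq pools of Ebf1-KO cells that carry an Ebf1 protein fused to an estrogen receptor domain (Ebf1ER), which 4-hydroxytamoxifen (4OHT) activates. Regions open in both with lower EP300 had the lowest accessibility at the start, with medians of 7.61, 10.4, 13.9 and 16.1 tags at 0, 6, 24 and 72 h of 4OHT. Regions between the thresholds had 18.5, 22.5, 27.6 and 28.8, and regions with higher EP300 had 17.1, 20.5, 21.9 and 24.2. Over all 1172 regions, 18.2% were at least 2-fold more accessible at 72 h than at 0 h. Of these groups, 29.3% of the regions with lower EP300 passed 2-fold, against 11.5% of those between and 9.91% of those with higher EP300. Their median log2 ratios of 72 h over 0 h were closer, at 0.63, 0.48 and 0.42 in that order. Spearman's rho between the EP300 log2 ratio and this ratio was -0.22 over regions open in both and -0.03 over those open in Wt only. At regions open in Wt only the order of the shares past 2-fold was another. They were 24.4% of the 160 regions with lower EP300, 19.2% of the 78 between and 38.9% of the 18 with higher EP300. There, the medians with lower EP300 were 2.75, 3.75, 4.1 and 4.61, beside 17.3 in the Wt pool at the same 160 regions, a value from another table scaled to the same total. That column is named as pooling 6 libraries, while the labels list 3 Wt ATAC-seq samples. Single regions of the genes above did not all gain. The Igll1 promoter had 4.65 at 0 h and 36.6 at 72 h, and the Cd79a promoter had 5.07 at 0 h and 31.4 at 72 h. The Alpl intron had 5.92 at 0 h and 2.88 at 72 h, and the Nedd9 intron had 4.02 at 0 h and 4.90 at 72 h. Of the 12 regions with the largest EP300 loss, 6 were at least 2-fold more accessible at 72 h. These pools carry no replicate column.

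**Figure D5:**
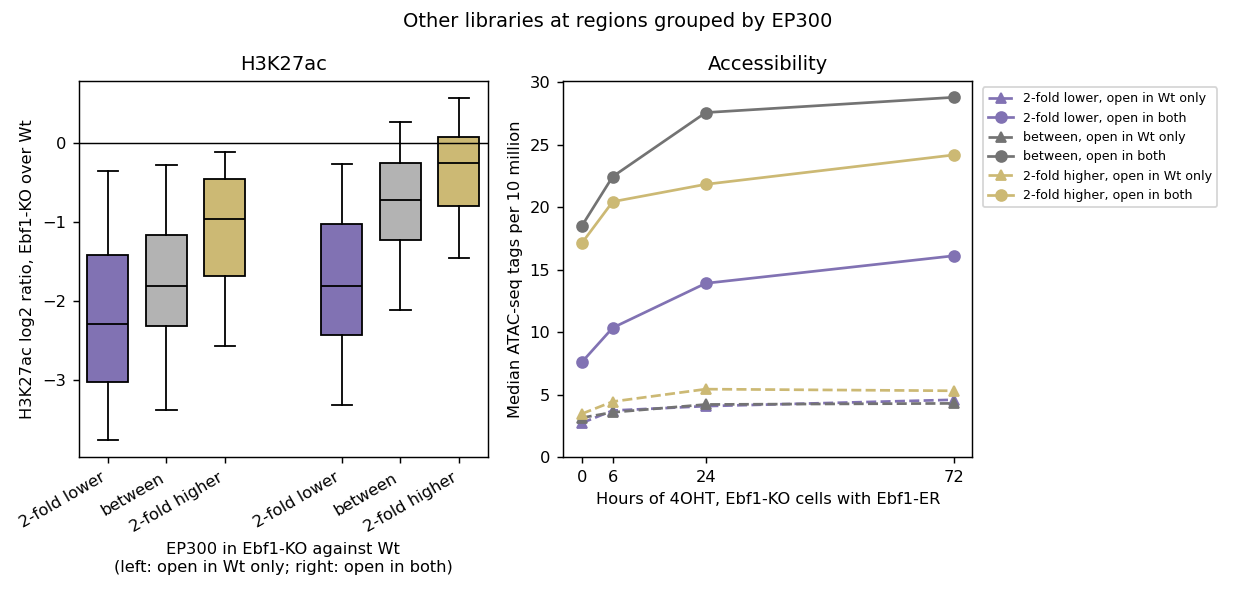
Left, H3K27ac log2 ratio (Ebf1-KO over Wt) at regions grouped by their EP300 difference, with boxes for quartiles and whiskers for the 5th and 95th percentiles. Right, median ATAC-seq tags per 10000000 against hours of 4OHT for the same groups. H3K27ac medians run from -1.81 to -0.25 across the EP300 groups of regions open in both, and accessibility of the group with lower EP300 starts at 7.61 tags and reaches 16.1.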

How the data were processed

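EP300, BRG1 and RNA polymerase II ChIP-seq values at Ebf1-bound regions were taken from the deposited region tables. Per the file headers, each signal value is the number of tags in a region scaled by the authors to a total of 10000000 tags per library, with the original total printed in the header. The submitters' processing notes name Trim Galore 0.6.4, Bowtie2 2.3.5, SAMtools 1.9, deepTools 3.3.1, HOMER 4.10, HiC-Pro 2.11.1, MACS2, Picard, FastQC, edgeR and the build mm10, without a role for each. Peak lists for Fli1 and Ikzf1 carry a score per peak deposited by the authors, and only their positions were used. Multiplying by the printed totals gave whole tags, with a largest deviation of 0.0317 tags in the EP300 library of Ebf1-KO. Ratios used a pseudocount of 1 and a threshold of 2-fold, because 1 library per genotype allows no test. TMM factors came from edgeR 4.0.16 in R 4.3.3 on these selected regions. Other work used pandas 2.3.3 and numpy 2.4.6 in Python 3.11.15, with SciPy 1.17.1 for intervals and matplotlib 3.10.9 for plots, and the scripts were tested on simulated data.

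Histone and Wt accessibility tables were joined by exact position (906 regions) or by at least 50% reciprocal overlap (258 regions), and 8 regions found no match. The 4OHT tables held all 1172 regions. By its name, the Wt accessibility column pools 6 libraries, where the labels list 3 Wt samples. In these tables, 27 columns of other libraries were not used. Named regions were the 12 largest differences in each direction among regions with at least 20 tags per 10000000 in one library, the 6 highest per library, up to 8 genes per list at their strongest region, and the loci of Ebf1, Pax5, Cd79a, Igll1, Vpreb1, Foxo1, Tcf3, Lef1, Pou2af1 and Rag2. Genes with 5 or more regions and the 5 promoters printed stand outside that rule. The members and lists were chosen with earlier results of these data known. Promoter windows came from RefSeq, GRCm38.p6, without those of chromosome 18. The EBF motif in region centres was not run, because no genome was used here. A result for 1 listed gene is not reported here.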

Additional observations from a re-analysis of the deposited data

How the results depend on the processing

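With 1 library per genotype no replicate could be left out, and depth limits single regions of a few tags, where counting intervals span several-fold. No paired analysis was possible because each genotype has 1 EP300 library and no test was run. Leaving out promoters left 994 regions, of which 391 (39.3%) were lower and 116 (11.7%) higher, with a median of -0.62. The median at regions open in both, which is under 2-fold, changed sign under both other scalings. With TMM, 254 regions were higher, and the median log2 ratios were -0.02 over all regions, -1.04 at regions open in Wt only and 0.14 at regions open in both. Scaling to the median of regions open in both gave 234 higher and medians of -0.10, -1.10 and 0.06 in the same order. A pseudocount of 5 gave 67 higher, -0.41 over all regions, -0.87 at regions open in Wt only and a difference between the classes of -0.57. A pseudocount of 0.1 gave -1.81 at regions open in Wt only. Keeping regions that reach 10 tags per 10000000 gave -2.22 there and a difference of -1.78. Without the uppermost quartile of regions by Wt RNA polymerase II, 284 of 879 (32.3%) were lower. The medians were then -0.43 over all of these and -0.18 at those open in both. Among regions of 500 to 1000 bp, 213 (42.3%) were lower and 72 (14.3%) higher, with a median of -0.72. The regions tested differ in number in the last 3 settings and in the setting without promoters. For the others the cause was not tested. Of 116 named regions, 103 kept their sign with TMM and 116 with a pseudocount of 5. Of the 75 past 2-fold, 66 remained past it under each.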
